A study of Bos taurus with 10 samples.

Results

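The genes described here are 10 regulators of the inner cell mass and of pluripotency, SOX2, POU5F1, NANOG, SALL4, LIN28A, LIN28B, KLF4, KLF5, DPPA3 and FGF4. Every non-control probe whose gene name is one of these, or whose description names one of them, was taken, which gave 23 of the 43653 probes of the bovine array, for 10 of the 15504 genes that could be named on it. Of these, 20 were found by gene name and 3 by description only. The samples were 10 lots of day 7 embryos, 1 array each, washed from the uteri of superovulated and inseminated cows. The vehicle group (2 arrays) carries the treatment label DMSO, and the other groups are senktide at 30 nmol/min (the low dose, 4 arrays) and at 300 nmol/min (the high dose, 4 arrays). Senktide, a peptide that activates the neurokinin-3 receptor, was given into a vein for 2 h from 48 h after superovulation began. Insemination followed at 108 and 120 h, and embryos were flushed 7 days after the first. No label says whether arrays of a group stand for different cows, or how many embryos went into each, so the p-values below cover the spread among these arrays alone, part of which may be technical. Titles, source and tissue name embryos, while the extraction text speaks of endometrium. The comparison asks whether the members' RNA levels differed between the groups, and it does not measure the embryos' quality or stage.

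The day 7 embryo of cattle is a blastocyst, with an outer trophectoderm, an inner cell mass and, within that, cells turning into primitive endoderm (hypoblast). SOX2, POU5F1 (OCT4) and NANOG are transcription factors that bind each other's genes and hold the inner cells in a pluripotent state, and in cattle POU5F1 is still found in the trophectoderm at this stage. SALL4 binds the same network and brings in the NuRD repressor complex, LIN28A and LIN28B block the maturation of let-7 microRNAs, KLF4 and KLF5 are zinc finger factors of the network, DPPA3 (STELLA) is an oocyte protein that shields DNA methylation, and FGF4 is the inner cells' signal to the cells around them.

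The probes are 60 bases long, and their sequences are the array's own, read in the direction of the transcript. The coordinates are those the array files give, on Btau_3.1. Those shown are taken to lie in coding sequence, though the files do not mark where it ends, and are probes that were well above background on 4 arrays or fewer, shown because the letters say what was asked of the sample where little or nothing was seen. POU5F1 and SOX2 each also had another probe that was seen on every array. For FGF4 both probes are shown because they share 59 bases and differ by 1 base at each end. The unshared base is in capitals.
NANOG A_73_P102321: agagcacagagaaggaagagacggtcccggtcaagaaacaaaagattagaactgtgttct
NANOG A_73_P106926: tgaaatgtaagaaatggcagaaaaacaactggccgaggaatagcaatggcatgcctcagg
POU5F1 A_73_P106936: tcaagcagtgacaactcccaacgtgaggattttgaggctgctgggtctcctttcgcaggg
SOX2 A_73_P102401: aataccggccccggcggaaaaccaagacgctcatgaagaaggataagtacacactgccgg
SALL4 A_73_P074826: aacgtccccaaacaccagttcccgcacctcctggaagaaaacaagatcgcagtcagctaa
LIN28A A_73_102568: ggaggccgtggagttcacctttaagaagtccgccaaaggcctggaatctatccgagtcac
LIN28B A_73_116994: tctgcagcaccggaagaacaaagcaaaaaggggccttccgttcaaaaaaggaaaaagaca
DPPA3 A_73_P091441: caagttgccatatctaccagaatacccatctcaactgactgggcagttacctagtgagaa
FGF4 A_73_117350: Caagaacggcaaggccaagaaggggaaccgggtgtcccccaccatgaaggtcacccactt
FGF4 A_73_P061706: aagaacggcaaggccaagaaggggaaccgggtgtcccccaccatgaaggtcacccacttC

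The NANOG probes lie at chr5:108828740-108828799 and, in a match split over 200 genome bases, chr5:108830092-108830291, plus strand. The POU5F1 probe lies at chr23:27909982-27910041 (plus) and the SOX2 probe at chr1:87361019-87361078 (minus). The SALL4 probe is at chr13:80573267-80573326 (minus), and those of LIN28A and LIN28B are at chr2:130970749-130970808 and chr9:47121305-47121364 (both minus). The DPPA3 probe is at chr5:108751691-108751750 (plus), on the same chromosome as NANOG. The FGF4 probes are at chr29:48851862-48851921 and chr29:48851861-48851920 (minus). Their GC content was 60%, against 45% for each of the NANOG, LIN28B and DPPA3 probes listed 55% for those of SOX2, POU5F1 and LIN28A, and 51.7% for that of SALL4.

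The arrays lay on 3 slides, and slide went with brightness. Slides 1 and 2 each held 1 vehicle, 1 low dose and 1 high dose array, and slide 3 held replicates 3 and 4 of both doses and no vehicle. Between 18.3% and 19.6% of the 43803 probe spots were well above background (the scanner software's own flag) on slide 3, and between 7.17% and 13.2% on slides 1 and 2. Of 10 trophectoderm markers, 6 (GATA2, GATA3, TFAP2C, KRT8, KRT18 and SSLP1) were well above background on every array, and TEAD4 and ELF5 were so on none. Of 8 primitive endoderm markers, HNF4A alone was so on every array, and GATA4, GATA6, SOX17, FOXA2 and LAMA1 were so on none. Of 9 uterine and oviduct epithelial markers, 0 to 2 were well above background on any array, with OVGP1, FOXL2, PAEP, ESR1 and PGR on none. The same range held for 5 stromal markers, 1 to 3 of 8 leukocyte markers were seen on each array, with LYZ on all, 0 or 1 of 3 blood markers were, and 0 of 6 cumulus and granulosa cell markers were. Most trophectoderm markers were thus seen on every array, and most markers of the uterus, stroma, blood and follicle on none.

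Of the 23 probes, 12 passed the background flag on 1 array or more, where 25.6% of all probes on the array did. They covered 7 of the 10 genes, and NANOG, LIN28A and LIN28B were not well above background anywhere. SOX2, POU5F1 and KLF4 each had 1 probe well above background on all 10 arrays, so 3 of 23 probes, against 5.71% of all probes. The number of member probes well above background on an array was 3 and 3 for vehicle, 6, 3, 8 and 9 at 30 nmol/min, then 4, 5, 10 and 9 at 300 nmol/min, in replicate order. The 4 arrays of slide 3 had the 4 highest counts, and the groups overlapped within slides 1 and 2. Summed over the brightest probe of each of the 10 genes (by mean over all arrays), the signal ran from 309.5 to 417 on vehicle arrays. It ran from 377 to 1287 at the low dose and from 433 to 1719 at 300 nmol/min. By slide it ran from 309.5 to 598 on slides 1 and 2 and from 1211 to 1719 on slide 3. The sums for the 10 trophectoderm markers ran from 2739 to 3168, from 3010 to 14339 and from 4757 to 17908 in the 3 groups, and their part in the members' differences was not tested. In such bulk samples, fewer cells of a type and less RNA per cell cannot be told apart.

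**Figure D1:**
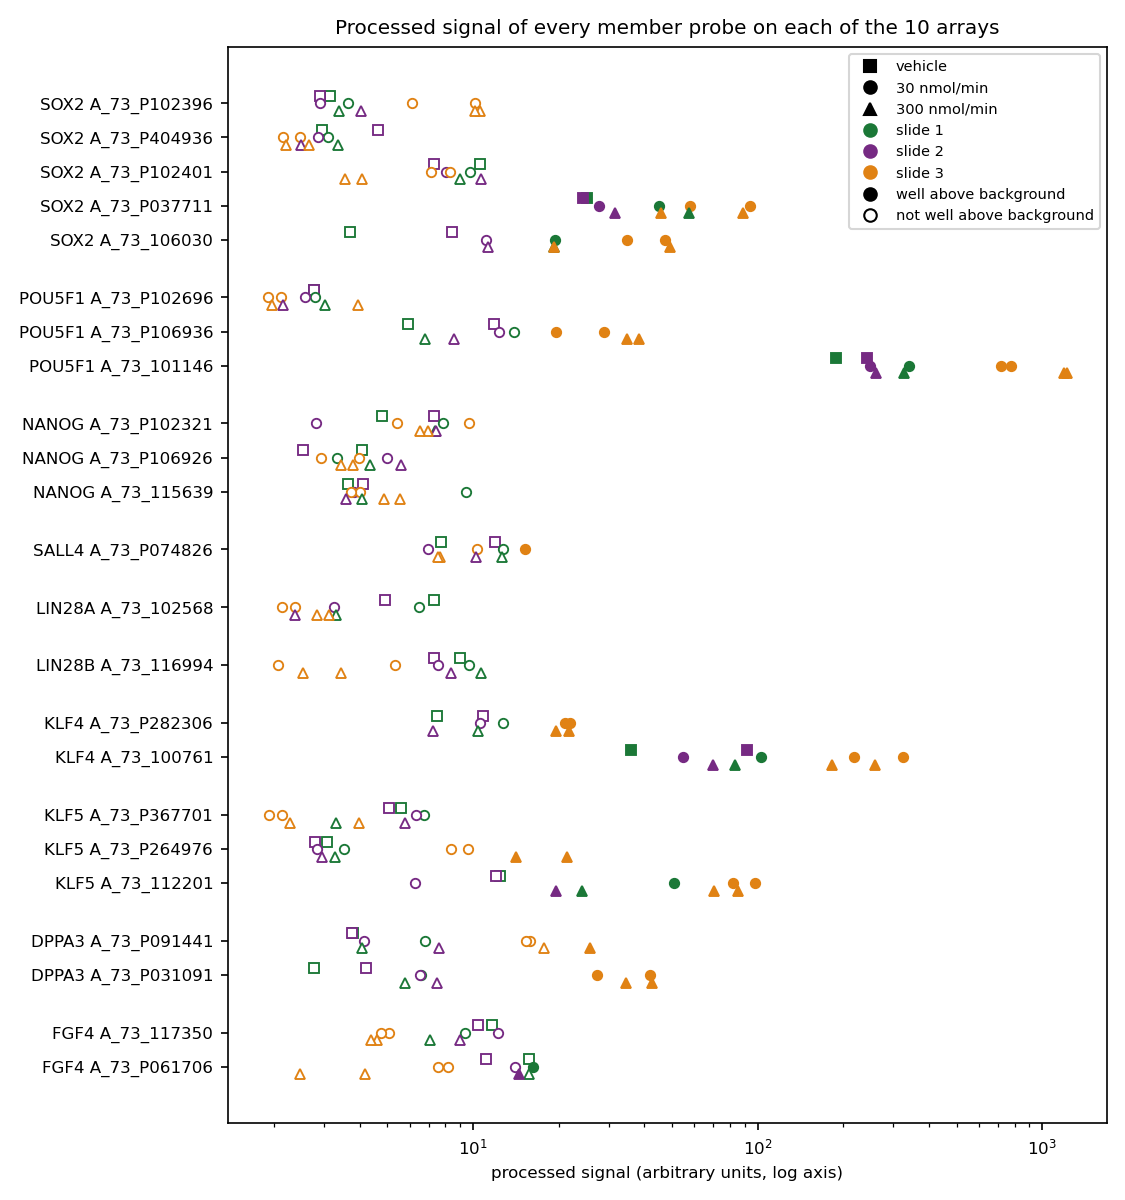
Processed signal (arbitrary units, log axis) of each of the 23 member probes on each of the 10 arrays, with shape for the group, colour for the slide and filled symbols for arrays on which the probe was well above background. The 3 probes filled on every array are SOX2 A_73_P037711, POU5F1 A_73_101146 and KLF4 A_73_100761, and levels are to be read along a row, since probes differ in their response.

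Within a gene, the probes were not seen on the same number of arrays. For POU5F1 the probe that starts at base 542 of the transcript was well above background on 0 arrays, the one at base 861 on 4 and the one at base 1542 on 10. KLF4 had 4 arrays at base 1597 and 10 at base 2095, KLF5 had 0, 2 and 7 at bases 676, 1833 and 3207, and DPPA3 had 1 at base 594 and 4 at base 1280, on different transcript records. In these 4 genes the probe farthest along the direction of transcription was the one seen on most arrays. SOX2 broke this order, with 0, 0, 10, 0 and 5 arrays from the first to the last probe along the genome. NANOG had 0 for all 3 of its probes, the last of which starts at base 1527. The order was noticed in these data and is a description of 7 genes with more than 1 probe.

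**Figure D2:**
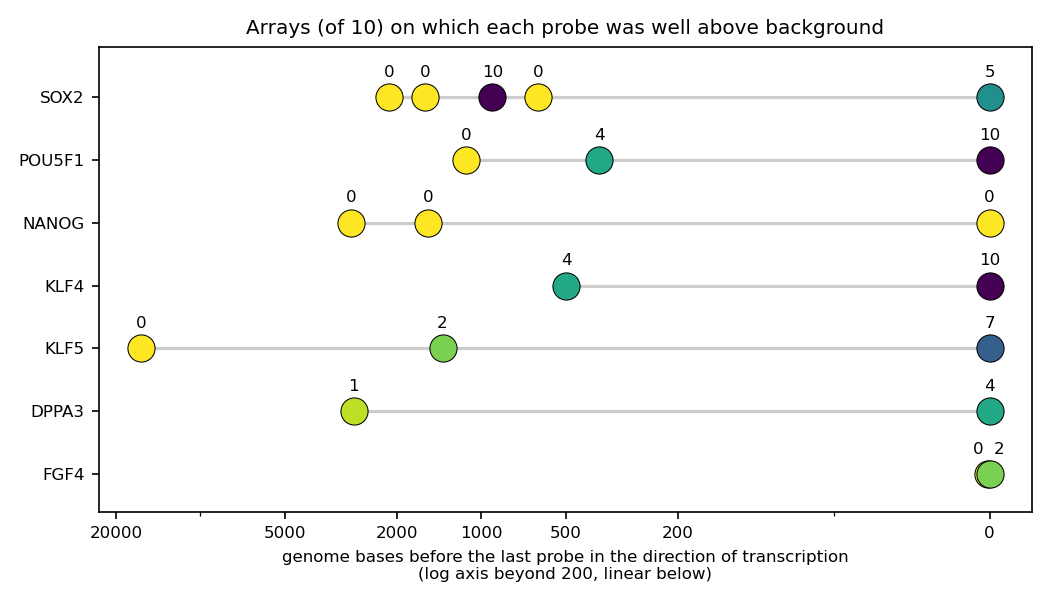
Position of each probe of the 7 genes that have more than 1, as genome bases before the gene's last probe in the direction of transcription (log axis beyond 200 bases, linear below), with the number above each point and its colour giving the arrays of 10 on which it was well above background. In POU5F1, KLF4, KLF5 and DPPA3 the number is highest at the last probe, with 10, 10, 7 and 4 arrays.

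SOX2, the factor most tightly tied to the inner cells, was read by 5 probes at chr1:87359439-87361627. Probe A_73_P037711 had processed signals of 25.1 and 24.3 on the vehicle arrays, 44.9, 27.6, 57.8 and 94.2 at 30 nmol/min, then 57.6, 31.7, 45.9 and 89.2 at 300 nmol/min, in replicate order. Both vehicle arrays were lower than all 8 senktide arrays on this raw scale. That held for 5 of the 23 member probes (4.31% of all probes) and for 4 of the 10 that were tested (18.0% of tested probes), and on the log2 scale used below for 0 of those 10 (4.33%). The arrays also differed in overall brightness, and log2 values below are therefore given relative to each array's scale, the 75th percentile of the 2491 probes that passed the flag on every array. On that scale SOX2 stood at −2.0 ± 0.48 (SD, n = 2) for vehicle, −2.18 ± 0.42 (n = 4) at the low dose and −2.35 ± 0.65 (n = 4) at the high dose, and the groups overlapped. The lowest single value was −3.20 on a 300 nmol/min array of slide 3, and the highest was −1.64 on the 300 nmol/min array of slide 1.

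A second SOX2 probe, A_73_106030, which the array's description ties to SOX2, gave 3.69 and 8.46 on vehicle arrays, 19.5, 11.1, 34.8 and 47.3 at 30 nmol/min, then 19.3, 11.3, 19.2 and 49.4 at 300 nmol/min. It was well above background on 3 of 4 and 2 of 4 senktide arrays and on neither vehicle array. The other 3 SOX2 probes stayed between 2.15 and 10.7 and were well above background on no array. One of them, A_73_P102396, is described by the array as lying in the 3′ untranslated region. Another is the coding probe A_73_P102401 printed above, whose signals of 3.55 and 4.09 on the slide 3 arrays at 300 nmol/min were its lowest.

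POU5F1, the second factor of the core network, was read by 3 probes at chr23:27909230-27910422. Probe A_73_101146, which carries an Ensembl transcript as its name and is tied to POU5F1 by its description, had signals of 189 and 242 on vehicle arrays, 339, 247, 774 and 713 at 30 nmol/min, then 327, 261, 1193 and 1221 at 300 nmol/min. All 10 arrays were well above background, and the 4 arrays of slide 3 were the 4 highest. Relative to the array scale it stood at 1.11 ± 0.20 (SD, n = 2) for vehicle, 1.00 ± 0.22 (n = 4) at the low dose and 1.16 ± 0.31 (n = 4) at the high dose. Once scaled, slide 3 ran from 0.81 to 1.5 and slides 1 and 2 from 0.87 to 1.31, so the slides overlapped.

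The coding POU5F1 probe printed above, A_73_P106936, was dimmer. Its signals were 5.91 and 11.8 on vehicle arrays, 13.9, 12.4, 28.9 and 19.5 at 30 nmol/min, then 6.81, 8.61, 38.4 and 34.9 at 300 nmol/min. It was well above background on the 4 slide 3 arrays and on no other. The third probe, A_73_P102696, ran from 1.90 to 3.95, and on 9 of the 10 arrays the software had put a surrogate value in place of a signal too low to use.

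NANOG, the factor that marks the epiblast as it separates from primitive endoderm, was dark on all 3 probes. A_73_P102321 gave 4.81 and 7.31 on vehicle arrays, 7.83, 2.81, 9.72 and 5.41 at 30 nmol/min, then 7.35, 7.44, 6.94 and 6.52 at 300 nmol/min. A_73_P106926 ran from 2.53 to 5.59 and A_73_115639 from 3.57 to 9.47, the latter with a surrogate on 8 arrays. For comparison, the dimmest spot on an array that passed as well above background had a signal between 9.47 and 14.9. NANOG RNA was therefore not detectable with these probes at this brightness, which does not show that it was absent, and no group difference can be given.

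SALL4, which links the network to NuRD, was read by 1 probe near the end of its coding sequence. Its signals were 7.73 and 11.9 on vehicle arrays, 12.7, 6.95, 10.4 and 15.2 at 30 nmol/min, then 12.6, 10.3, 7.68 and 7.57 at 300 nmol/min. It was well above background on 1 array, replicate 4 at 30 nmol/min, then the 3 groups overlapped.

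The RNA-binding proteins LIN28A and LIN28B, 1 probe each, were well above background on no array. LIN28A gave 7.29 and 4.92 on vehicle arrays and ran from 2.13 to 6.48 at the low dose and from 2.38 to 3.31 at 300 nmol/min, with a surrogate on 5 arrays. LIN28B gave 8.98 and 7.29 on vehicle arrays, 9.67, 7.52, 5.34 and 2.08 at 30 nmol/min, then 10.7, 8.38, 3.44 and 2.53 at 300 nmol/min. The 4 lowest LIN28B signals were those of slide 3, on the slide where bright probes were brightest.

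KLF4, a zinc finger factor of the network, was read by 2 probes at chr8:102276532-102277089. Probe A_73_100761 had signals of 35.9 and 91.7 on vehicle arrays, 103, 54.8, 219 and 323 at 30 nmol/min, then 83.2, 69.7, 182 and 258 at 300 nmol/min. The vehicle arrays fell within the range of the senktide arrays of slides 1 and 2 or below it, and the slide 3 arrays were all higher. On the array scale it stood at −0.79 ± 0.51 (SD, n = 2) for vehicle, −0.71 ± 0.26 (n = 4) at the low dose and −1.05 ± 0.14 (n = 4) at the high dose. The 2 vehicle values, −1.15 and −0.43, nearly spanned the whole range of the other 8 arrays. The other KLF4 probe, A_73_P282306, was between 7.26 and 12.8 on slides 1 and 2, and at 21.0 and 21.9 (30 nmol/min) and 19.5 and 21.8 (300 nmol/min) on slide 3, where alone it was well above background.

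KLF5, the relative of KLF4 that acts in both blastocyst lineages, was read by 3 probes at chr12:48067070-48083362. Probe A_73_112201 gave 12.4 and 12.1 on vehicle arrays, 50.9, 6.25, 98.2 and 81.6 at 30 nmol/min, then 24.1, 19.6, 70.2 and 85.6 at 300 nmol/min. It was well above background on 0 of 2 vehicle arrays, 3 of 4 at the low dose and 4 of 4 at 300 nmol/min. In raw signal both senktide arrays of slide 1 were above the vehicle array, and the 30 nmol/min array of slide 2 was below it. On the array scale the 300 nmol/min array of slide 1 was below vehicle too, at −2.89 against −2.68. Probe A_73_P264976 was well above background on the 2 slide 3 arrays at 300 nmol/min alone, at 14.2 and 21.5, and probe A_73_P367701 stayed between 1.92 and 6.76.

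DPPA3, known from the oocyte and from cells that shield or reset their methylation, was read by 2 probes at chr5:108751691-108754600. A_73_P031091 gave 2.76 and 4.21 on vehicle arrays, 6.56, 6.50, 27.3 and 41.8 at 30 nmol/min, then 5.79, 7.49, 34.6 and 42.6 at 300 nmol/min. It was well above background on the 4 slide 3 arrays and on no other. In raw signal both senktide arrays were above the vehicle array on slide 1 and on slide 2, none of them well above background. On the array scale the 300 nmol/min array of slide 1 was below vehicle, at −4.95 against −4.85, where the vehicle signal was a surrogate. The other senktide arrays of slides 1 and 2 stayed above their vehicle array on that scale. The coding probe A_73_P091441 was well above background on 1 array, replicate 3 at 300 nmol/min, at 25.8. It read 3.80 and 3.76 on vehicle arrays and 15.4 to 17.8 on the rest of slide 3.

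FGF4, the growth factor sent from the inner cells, was near background and, like LIN28B, went the other way in raw signal. A_73_P061706 gave 15.7 and 11.2 on vehicle arrays, 16.3, 14.1, 7.55 and 8.18 at 30 nmol/min, then 15.8, 14.6, 4.19 and 2.48 at 300 nmol/min. It was well above background on 2 arrays, replicate 1 at 30 nmol/min (slide 1) and replicate 2 at 300 nmol/min (slide 2), and the 4 slide 3 arrays were its lowest. The probe that shares 59 of its bases, A_73_117350, gave 11.7 and 10.4, then 9.40, 12.3, 5.09 and 4.78, then 7.07, 9.01, 4.6 and 4.37, and was well above background on none. Both FGF4 probes were thus lowest on slide 3, but they are nearly the same sequence and do not count as separate evidence.

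No member gene passed the test in any of the 3 group comparisons. A probe was tested if it passed the background flag on 2 arrays or more. Of the 10 member probes that did, 0 differed between 30 nmol/min and vehicle at an adjusted p under 0.05 (limma, Benjamini-Hochberg over 8935 probes), where 0.0% of all tested probes did. Between 300 nmol/min and vehicle it was again 0, where 0.0112% of tested probes (1 probe) differed, and between the doses 0, where 0.0% did. With the normexp and quantile setting, 36, 107 and 1 of all tested probes passed in these comparisons, and 0 members. At a p without adjustment under 0.05, 1 member probe lay below the threshold for the low dose (SOX2 A_73_106030, where 11.3% of all probes did). For the high dose 1 did (KLF4 A_73_P282306, where 13.8% did), and between the doses 0 (where 3.0% did). On the array scale the SOX2 probe was above vehicle, by a log2 of 0.90, and the KLF4 probe below it, at −0.86. Both were tested only because of senktide arrays, so the filter favoured a rise over vehicle. Neither of those probes was well above background on a vehicle array, so the vehicle level is a bound only and neither direction is read. The member probes that passed the filter are those seen on enough arrays, not all members.

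For SOX2 A_73_P037711 the fitted log2 difference from vehicle was −0.18 (SE 0.43, 95% interval −1.14 to 0.78, limma adjusted p = 0.880) at 30 nmol/min. At 300 nmol/min it was −0.35 (SE 0.43, −1.31 to 0.62, limma adjusted p = 0.715), and between the doses −0.16 (SE 0.35, −0.95 to 0.62, limma adjusted p = 0.999). Within slides 1 and 2 the low dose minus vehicle was −0.33 and 0.50, and the high dose minus vehicle was 0.02 and 0.22. Both intervals against vehicle reach below a log2 of −1 and end short of 1, and the sign differed between slides for the low dose. When each array was instead scaled by the 75th percentile taken over its whole probe set, the differences from vehicle turned to 0.88 and 0.83. The direction therefore depends on the scale, and it is not called.

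For POU5F1 A_73_101146 the difference from vehicle was −0.11 (SE 0.25, 95% interval −0.67 to 0.45, limma adjusted p = 0.876) at the low dose and 0.05 (SE 0.25, −0.51 to 0.61, limma adjusted p = 0.945) at 300 nmol/min. High minus low dose was 0.16 (SE 0.20, −0.30 to 0.61, limma adjusted p = 0.999). On slides 1, 2 and 3 that dose difference was −0.06, −0.40 and 0.54, so slide 3 alone had the higher dose above the lower. Against vehicle, slides 1 and 2 gave −0.33 and 0.34 for the low dose and −0.38 and −0.05 for the high dose.

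For KLF4 A_73_100761 the difference from vehicle was 0.07 (SE 0.26, 95% interval −0.50 to 0.65, limma adjusted p = 0.919) at the low dose and −0.26 (SE 0.26, −0.84 to 0.31, limma adjusted p = 0.633) at 300 nmol/min. Between the doses it was −0.34 (SE 0.21, −0.80 to 0.13, limma adjusted p = 0.999), and on slides 1, 2 and 3 it was −0.31, −0.13 and −0.45. KLF4 is thus the one always detected member in which the higher dose was the lower of the pair on each slide, by less than the fit could separate from 0. Without the array that stands apart, replicate 4 at 30 nmol/min (−0.33, where the others of its group lay between −0.87 and −0.79), the difference between the doses was −0.21. Among tested member probes not always detected, SOX2 A_73_106030, KLF4 A_73_P282306 and FGF4 A_73_P061706 also had the higher dose lower on each slide. The remaining such probes did not.

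**Figure D3:**
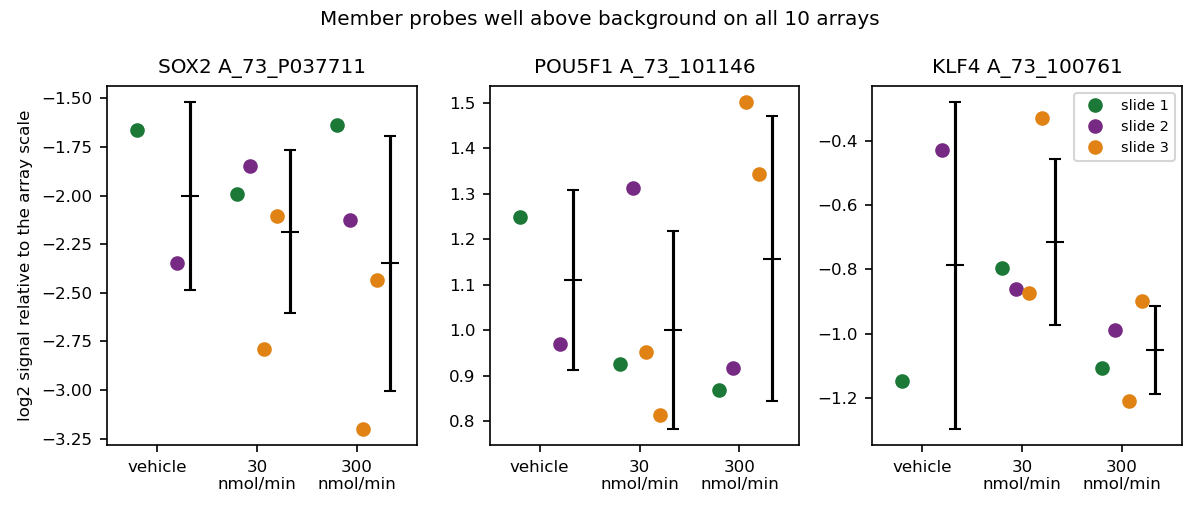
Log2 signal relative to the array scale for the 3 member probes that passed the background flag on every array, with 1 point per array coloured by slide, and the mean and SD of each group (vehicle n = 2, 30 nmol/min n = 4, 300 nmol/min n = 4) drawn beside the points. The groups overlap in all 3 panels, and each panel has its own vertical axis.

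**Figure D4:**
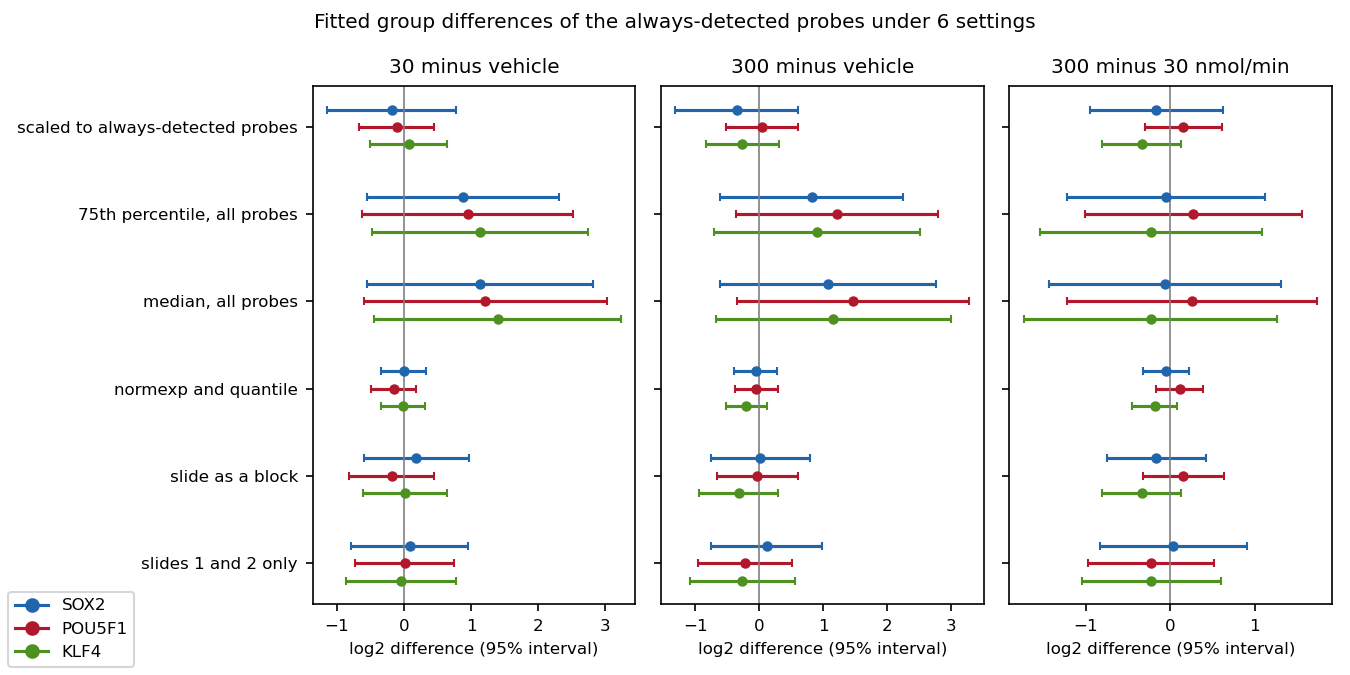
Fitted log2 group differences with 95% intervals for the same SOX2, POU5F1 and KLF4 probes in the 3 comparisons, under the scale used here and 5 other settings. Every interval includes 0, and scaling to all probes moves the differences from vehicle upward, to 0.88, 0.95 and 1.13 for the low dose.

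For the members dark in vehicle, only a bound or a comparison of the doses can be given. KLF5 A_73_112201 was tested only because of the senktide arrays, on 7 of which it was seen, so its choice favoured a difference from vehicle. As a description, it was at least 1.31-fold higher at 30 nmol/min than in vehicle and at least 1.18-fold higher at 300 nmol/min. These bounds set the senktide mean against, per vehicle array, the higher of the probe's own signal and the lowest signal well above background. The fit behind them gave limma adjusted p = 0.723 and 0.797, and each bound was above 1 on 1 slide only, with 1.68-fold on slide 1 for the low dose and 1.40-fold on slide 2 for the high dose. On the other slide the senktide array was below vehicle on the array scale, by a log2 of −0.64 for the low dose (slide 2) and −0.22 for the high dose (slide 1). For SOX2 A_73_106030, POU5F1 A_73_P106936, KLF4 A_73_P282306, KLF5 A_73_P264976 and DPPA3 A_73_P031091 the bound was under 1 on this scale, and no fold against vehicle is given. With the 75th percentile and the median of the whole probe set as scale it was, at the low dose, 1.67 and 2.0 for SOX2, 1.21 and 1.45 for POU5F1, 1.08 and 1.30 for KLF4, and 1.02 and 1.22 for DPPA3. At the high dose it was 1.38 and 1.64 for SOX2, 1.08 and 1.29 for POU5F1, and 1.03 and 1.22 for DPPA3, with KLF4 above 1 under the median alone (1.03) and KLF5 A_73_P264976 under neither. These probes too were tested only because of senktide arrays, so their choice favoured a difference from vehicle. Under these scales the median log2 difference of all tested probes from vehicle was 0.95 and 1.21 at the low dose. At the high dose it was 1.06 and 1.32, so these bounds are not read as a change in the members.

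Between the doses, the same probes differed by log2 values of −0.39 (SE 0.28) for SOX2 A_73_106030, −0.28 (SE 0.34) for POU5F1 A_73_P106936 and −0.44 (SE 0.24) for KLF4 A_73_P282306. KLF5 A_73_112201 gave −0.16 (SE 0.43) and DPPA3 A_73_P031091 −0.10 (SE 0.38). All 5 had a limma adjusted p of 0.999. For KLF5 the values on slides 1, 2 and 3 were −1.08, 1.18 and −0.37, so the dose order was not the same from slide to slide.

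Many of the members' raw signals went with the slide, which cannot be told apart from the samples that it held. The signal was higher on all 4 arrays of slide 3 than on all 6 others for 9 of the 23 probes, where 18.4% of all probes were, and lower for 3, where 11.6% were. The 9 were 1 SOX2, 2 POU5F1, 2 KLF4, 2 KLF5 and 2 DPPA3 probes, and the 3 were LIN28B and both FGF4 probes. Of the 11 member probes well above background on no array, 2 were lower on all of slide 3, where 14.1% of such probes on the array were. For 3 of 23 (POU5F1 A_73_P106936, KLF4 A_73_P282306 and DPPA3 A_73_P031091) all 4 arrays of slide 3 and none of the others were well above background, where 3.65% of all probes were. Because slide 3 held no vehicle array, a detection count by group for these 3 probes is a count by slide.

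On the array scale, 1 of the 10 tested member probes (DPPA3 A_73_P031091) was higher on all 4 arrays of slide 3 than on all others, where 2.55% of tested probes were, and 1 (FGF4 A_73_P061706) was lower, where 13.3% were. In the limma fit, 2 of the 10 tested member probes differed between slide 3 and slides 1 and 2 with group as a term, where 13.8% of the tested probes did (2.61% higher and 11.2% lower). This contrast was added after the data had been seen. The 2 are the same probes. Each was tested only because of the side on which it was high, so the filter favoured a difference and their values are a description. POU5F1 A_73_P106936, KLF4 A_73_P282306 and KLF5 A_73_P264976 also passed the flag on slide 3 alone, and gave −0.00018, −0.49 and 0.44. None of these passed the threshold. DPPA3 A_73_P031091, which passed the flag on slide 3 alone, had a mean of −3.56 there and of −4.60 on slides 1 and 2, where it is a bound. On this scale the bound was under 1 and no fold is given, while with the 75th percentile of the whole probe set as scale slide 3 was higher by 2.55-fold or more, and with the median by 3.23-fold or more. FGF4 A_73_P061706, which passed on 1 array each of slides 1 and 2, had a mean of −3.14 there and of −6.40 on slide 3. The bound put slide 3 4.74-fold lower. Most arrays behind the −3.14 were not well above background either, so that figure is no firm minimum. Under those other scales the bound was 1.55-fold and 1.22-fold lower, with the same limit. On the array scale the member probes not tested were also lower on all 4 arrays of slide 3. The exceptions were SOX2 A_73_P102396 and DPPA3 A_73_P091441, so this order was not particular to FGF4.

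The slide differences of the 3 always detected probes on the array scale were −0.73 for SOX2 (SE 0.26, limma adjusted p = 0.105), 0.15 for POU5F1 (SE 0.21, limma adjusted p = 0.722) and 0.11 for KLF4 (SE 0.21, limma adjusted p = 0.790). SOX2 was thus the one of the 3 that did not keep pace with the array's bright probes on slide 3, although this was not past the threshold. Scaled to all probes instead, all 3 passed as higher on slide 3, by 0.76, 1.64 and 1.60. So did 7765 of the 8935 tested probes, which as a whole shifted by a median of 1.42. Among dim probes of the whole array the signal on slide 3 was lower by a median log2 of −0.29 for GC contents under 40% and of −0.39 at 55% or above, and FGF4's probes have 60%. The part of base composition or RNA quality in the FGF4 result was not tested.

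The members' partners were read by lists of related genes, with the brightest tested probe standing for each gene. Of 22 core network partners 15 were on the array and 4 were tested, of which 0 passed in any comparison. OTX2, a factor of the primed epiblast, was well above background on 10 arrays and differed from vehicle by 0.20 at the low dose and 0.21 at the high dose (SE 0.23 each, limma adjusted p = 0.738 and 0.682). SOX15, a relative of SOX2, was seen on 9 arrays and gave −0.80 and −0.68 (SE 0.59 each, limma adjusted p = 0.582 and 0.591). The median of the 4 genes was −0.02 and −0.01, where that of all tested probes was −0.11 in both.

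Of 18 genes of FGF4 signalling, 9 were tested and 0 passed. FGFR4, a receptor for FGF4, was well above background on 10 arrays, and the low and high doses differed from vehicle by 0.06 and 0.12 (SE 0.23 each). EGR1, an early target of the ERK pathway, was seen on 4 arrays, 2 of each dose. It gave the list's smallest p, between the doses, with a log2 difference of −1.35 (SE 0.39, limma adjusted p = 0.999). FGFR2, another receptor, came next, but it was seen on 1 array of each dose and has no value. The list's median, with FGFR2 included, was 0.02, 0.04 and −0.02 in the 3 comparisons, against −0.11, −0.11 and −0.01 for all tested probes.

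Of 8 genes of LIF and STAT3 signalling, 4 were tested and 0 passed. STAT3, the transducer, was well above background on 9 arrays and gave −0.15 (SE 0.22) between the doses, and the kinase JAK1 gave 0.38 (SE 0.15, both limma adjusted p = 0.999). Of 12 genes around LIN28 and let-7, 6 were tested and 0 passed. HMGA1, IGF2BP1 and DGCR8 were seen on 10 arrays although neither LIN28 gene was seen on any. DGCR8, a part of the microprocessor that cuts primary microRNAs, gave −0.52 at 300 nmol/min against vehicle (SE 0.22, limma adjusted p = 0.343). IGF2BP2 was seen on 2 arrays of different groups and has no value. The median of the LIN28 list was −0.23, −0.49 and −0.09 in the 3 comparisons, and that of the LIF list −0.13, −0.04 and 0.08, against −0.11, −0.11 and −0.01 for all tested probes. The LIN28 medians include IGF2BP2, whose fit was −2.44 at the low dose and −2.02 at the high dose against vehicle.

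Of 9 NuRD genes 8 were tested, and HDAC1, MBD3, RBBP4 and RBBP7 passed the flag on all 10, while SALL4, which recruits the complex, was so on 1. In the list 0 genes passed. GATAD2A gave −0.94 at 300 nmol/min against vehicle (SE 0.26, limma adjusted p = 0.225) and HDAC2 −1.03 at 30 nmol/min (SE 0.38, limma adjusted p = 0.376). The list's median was −0.16 and −0.18 against vehicle and −0.02 between the doses. Of 7 genes of DPPA3 and maternal methylation protection 2 were tested and 0 passed. DNMT1, the maintenance methyltransferase, was seen on 2 arrays of different groups and has no value, and TRIM28 gave 0.54 between the doses (SE 0.42, limma adjusted p = 0.999). With 2 genes, no median is read for this list.

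Likeness over arrays was measured as Pearson's r of the scaled log2 value over the 10 arrays, among the 2491 always detected probes. The points share slide and depth, so r was also taken after slide means had been removed. The 3 genes most like SOX2 were CCDC59 (0.87), JAGN1 (0.86) and IER3IP1 (0.85), and after slide means were removed SPCS1 (0.94), JAGN1 (0.86) and CHCHD5 (0.86). For POU5F1 they were NAP1L1 (0.90), CNDP2 (0.88) and TBRG4 (0.87), then PPP2R1A (0.93), NAP1L1 (0.92) and MTMR14 (0.92). For KLF4 they were NME2 (0.92), CMC2 (0.90) and KDM2A (0.88), then NME2 (0.91), MRPS24 (0.91) and KDM2A (0.90). None of these is a member or a partner from the lists above. Each was picked for the highest r among 2491 probes over only 10 arrays, and whether r exceeds chance was not tested. The 3 members did not follow each other: r was −0.38 for SOX2 and POU5F1, 0.05 for SOX2 and KLF4 and −0.52 for POU5F1 and KLF4, and −0.29, 0.39 and −0.65 after slide means were removed.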

How the data were processed

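Each array's deposited scanner output gives spot intensity as Agilent Feature Extraction wrote it (version 11.5.1.1 in the headers and 10.5.1.1 in the submitters' processing notes). The processed intensity was background-subtracted by the authors' software, with a surrogate for low values, per the file headers. The deposited series matrix holds log2 values, which matched log2 of the processed signal, scaled by the 75th percentile of the whole array and centred on the median of each probe, to within 0.01 for 99.96% of values. The medians of its columns were, for vehicle, 0.22 and 0.12, for the low dose 0.045, 0.066, −0.13 and −0.31, and for the high dose 0.16, −0.18, −0.28 and −0.23. Build Btau_3.1 comes from the file headers. Exon annotation was not used here.

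Outlier spots were left out and spots of 1 probe averaged. Values were log2 of the signal minus the array's 75th percentile over the 2491 probes that passed the background flag on every array, since under 50% of probes were detected. The 8935 probes well above background on at least 2 arrays were fitted in limma 3.58.1 (R 4.3.3), 1 coefficient per group over 10 arrays, with Benjamini-Hochberg adjustment and a threshold of 0.05. Calls were tested on simulated data. RefSeq accessions named 20595 probes, symbols 10745, synonyms 376 and other identifiers 707 and 501. The members, lists and tests were chosen with earlier results of these data known. All member probes are described. Of each list, the 2 genes of smallest p are named, and HMGA1, IGF2BP1, FGFR4 and the NuRD genes seen on all arrays were added after their values were seen. The number of arrays limits the precision.

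The reported fits did not pair arrays, and replicate number was a block only in an alternative. Deviations from group means correlated at r = 0.487, 0.494, 0.565 and 0.574 within the 4 same-numbered pairs of senktide arrays. Each such pair shares a slide, and differently numbered pairs reached 0.544 and 0.492 on slide 3 and 0.413 and 0.417 between slides 1 and 2, so the likeness is not particular to the number. Alternatives were other scalings, normexp with quantile normalization, the series matrix, filters, a raised floor, slide and replicate blocks, slides 1 and 2 alone, and leaving out each array. Tables and plots were made in Python 3.11.15 (pandas 2.3.3, numpy 2.4.6, matplotlib 3.10.9).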

Additional observations from a re-analysis of the deposited data

Results flagged for a closer look

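One result stood apart within its group. KLF4 A_73_100761 had a scaled log2 signal of −0.33 on replicate 4 at 30 nmol/min, on slide 3, far above the other 3 arrays of that group. Its gap to the nearest of them was 0.855 of the group's range, beyond Dixon's 95% critical value for 4 values. In all 20 groups of 4 arrays were looked at, and chance alone passes that value in about 1 group in 20.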

How the results depend on the processing

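Of 275 member differences under the alternatives, 229 kept their direction and 46 turned, and in 0 of 648 member fits was the limma adjusted p under 0.05. The replicate block changed no other call than the counts named here. Against vehicle at 30 nmol/min, the count of probes changed (0) became 36 with normexp and quantile normalization and 0 to 36 without 1 array (34 without vehicle replicate 1, 36 without vehicle replicate 2). At 300 nmol/min the count (1) became 107 with normexp, 0 to 50 without 1 array (32 and 50 without vehicle replicates 1 and 2), and 0 with the other scalings, the series matrix, either other filter, the raised floor, the slide block, the replicate block, and slides 1 and 2 alone. Between the doses (0) it was 1 with normexp, 1 with the replicate block and 0 to 0 without 1 array.

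Under the 75th percentile of the whole probe set, its median, and in the series matrix, the low dose minus vehicle turned to 0.88, 1.14 and 0.88 for SOX2 A_73_P037711 and to 0.95, 1.21 and 0.95 for POU5F1 A_73_101146. High dose minus vehicle turned to 0.83, 1.08 and 0.83 for SOX2 and to 0.91, 1.16 and 0.91 for KLF4 A_73_100761, and DPPA3 A_73_P031091 between the doses to 0.013, 0.0027 and 0.013. With the slide block, and equally the replicate block, SOX2 turned to 0.18 and 0.020 and POU5F1 (high dose) to −0.026. On slides 1 and 2 alone SOX2 turned to 0.083, 0.12 and 0.038 (low dose, high dose, between doses), POU5F1 to 0.0090, −0.22 and −0.23, KLF4 (low dose) to −0.040 and KLF5 A_73_112201 between the doses to 0.048. With normexp POU5F1 (high dose) was −0.040 and KLF4 (low dose) −0.015, and with the raised floor POU5F1 A_73_P106936 between the doses was 0.070. The KLF5 bounds rose to 2.73 and 2.65 (75th percentile) and to 3.28 and 3.16 (median). Under those scales all tested probes had a median log2 difference from vehicle of 0.95 and 1.06 (75th percentile) and 1.21 and 1.32 (median).

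Leaving out 1 array gave, for SOX2 A_73_P037711, −0.52 to 0.16 (low dose), −0.69 to −0.0035 (high dose) and −0.40 to 0.12 (between doses). POU5F1 A_73_101146 ran from −0.25 to 0.030, from −0.092 to 0.19 and from 0.042 to 0.26. KLF4 A_73_100761 ran from −0.29 to 0.43, from −0.62 to 0.097 and from −0.39 to −0.21. Between the doses KLF5 A_73_112201 ran from −0.65 to 0.082, DPPA3 A_73_P031091 from −0.37 to 0.19, SOX2 A_73_106030 from −0.54 to −0.12, POU5F1 A_73_P106936 from −0.50 to −0.036 and KLF4 A_73_P282306 from −0.56 to −0.22. A lone vehicle array is then assumed to vary like the other groups. The cause of these turns was not tested. With 2 vehicle arrays, neither on slide 3, and most member probes near background, small differences could not be resolved.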
